A study of Mus musculus with 9 samples.

Results

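Fibroblast growth factors (FGFs) are secreted signals that bind heparan sulphate and a small family of receptor tyrosine kinases on the cell surface. In the developing salivary gland the mesenchyme makes Fgf7 and Fgf10, which act on the epithelium through the b isoform of Fgfr2, and mice without Fgf10 or this receptor isoform fail to form the gland. Ligand binding recruits adaptors that switch on the ERK cascade, which in turn induces its own inhibitors. The genes described here are 4 ligands (Fgf1, Fgf2, Fgf7 and Fgf10) and 5 receptors (Fgfr1, Fgfr2, Fgfr3, Fgfr4 and Fgfrl1), taken by name from the 54532 genes of a read count table. They are 9 genes in all, and each matched 1 Ensembl identifier.

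The libraries came from submandibular salivary glands of wild-type (WT) mice exposed to 10 Gy of radiation. Glands were collected 30, 60 or 90 days later, with 3 samples per time point and 9 in all. The study's design text concerns degeneration of the gland and its lasting loss of function. All groups share the radiation, and non-irradiated glands were not analysed here, so time since radiation cannot be told apart from the age of the mice. Each library was made from 4 sections with a thickness of 50 µm and so holds part of a gland. The labels do not say whether samples of a time point came from separate mice, and p-values measure only the spread between these samples.

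Total counts ran from 16541396 to 17179500 at 30 days, from 21722141 to 24880803 at 60 days and from 20410818 to 26065856 at 90 days. Most markers of the labelled tissue were detected, with exceptions. The summed level of 10 serous acinar markers ran from 324400 to 674800 CPM (read counts relative to the library total, scaled between libraries with TMM factors), and that of 7 granular duct markers from 4095 to 29520 CPM. Of the summed acinar level, Mucl2 alone made up 264700 to 519000 CPM, while the listed acinar marker Smr3a was at 0 in every library except 90-day sample 2 (0.0344 CPM) and Dcpp1 lay between 0.0709 and 7.60 CPM. Of the granular duct markers, 6 of 7 were called higher at 60 and at 90 than at 30 days, where 1.14% and 1.81% of all genes tested were. The fibroblast list of 10 markers ran from 401.1 to 644.7 CPM at 30 days, from 404.2 to 591.1 at 60 days and from 505.3 to 619.3 at 90 days, with 0 markers called in any of these comparisons. Skeletal muscle markers summed to at most 3.075 CPM, with Myh4 at 0 in every library, and markers of the mucous sublingual gland to at most 12.72 CPM.

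Levels of different genes can be compared only per length, so CPM were divided by the summed length of all annotated exons of a gene in kilobases (kb), from GENCODE mouse release 21 on GRCm38. On that scale the genes fell into tiers. At 30 days Fgfrl1, a receptor that binds FGFs but lacks a kinase domain, stood at 10.1 ± 0.930 CPM per kb (SD, n = 3), followed by the ligand Fgf1 at 6.45 ± 0.623 and the epithelial receptor Fgfr2 at 4.67 ± 1.25. Fgf10 at 2.64 ± 0.193, Fgfr1 at 2.31 ± 0.460 and Fgf7 at 1.45 ± 0.174 CPM per kb formed a middle tier. Fgf2 at 0.371 ± 0.0195 and Fgfr3 at 0.287 ± 0.0193 CPM per kb were lower, and Fgfr4 had 0 counts in all 3 libraries.

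Some neighbours in this order did not differ beyond their spread. The 30-day ranges of Fgf1 and Fgfr2 overlapped, as did those of Fgf10 and Fgfr1. At 90 days the means of Fgfrl1 and Fgf1 were 7.45 ± 1.47 and 7.37 ± 0.777 CPM per kb, with overlapping ranges, and the ranges of Fgfr2 (3.24 ± 0.540), Fgfr1 (2.88 ± 0.421), Fgf10 (2.52 ± 0.149) and Fgf7 (2.10 ± 0.607) each overlapped the next. The order within the top tier also depended on the length used. With the length of the APPRIS principal transcript, an alternative chosen after seeing the data, Fgfr2 led at 30 days with 14.5 ± 3.89 CPM per kb, ahead of Fgfrl1 with 12.1 ± 1.11, and Fgfr1 (4.54 ± 0.904) stood above Fgf10 (2.95 ± 0.216). The exon union of Fgfr2 is 10328 bases long against 3323 for its principal transcript, and for Fgf7 the lengths are 3248 and 2672. Under both lengths Fgf7 was above Fgf2 and Fgfr3 in every library, and Fgfr4 was last.

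**Figure D1:**
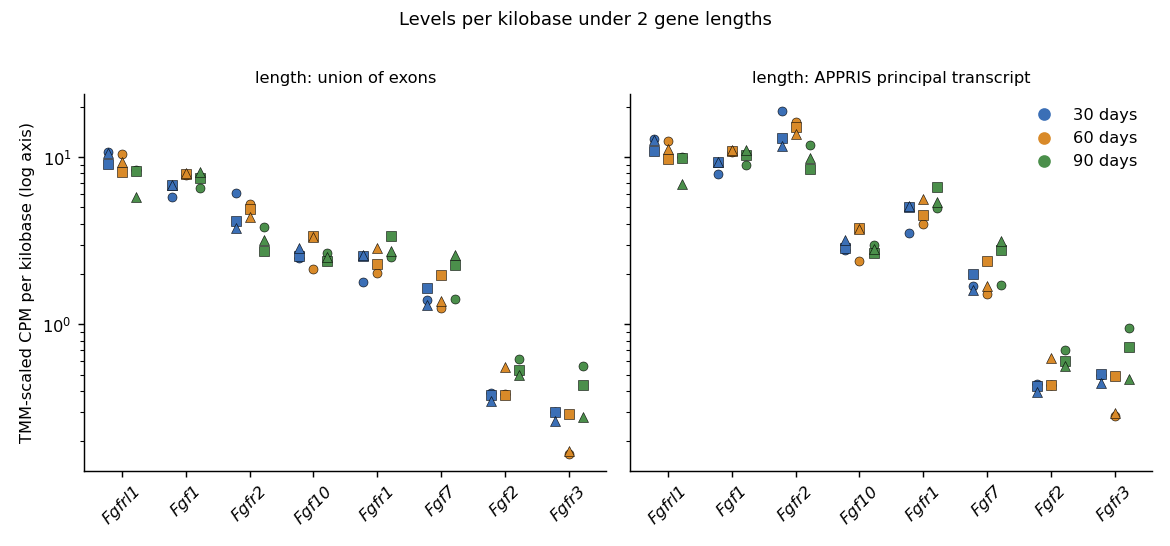
TMM-scaled CPM per kilobase on a log axis for 8 genes in each of 9 libraries, with exon-union length on the left and principal-transcript length on the right; colours are time points and symbols are sample numbers, and Fgfr4 is left out because most of its values are 0. By their means over the 9 libraries Fgfrl1, Fgf1 and Fgfr2 are the highest under either length, in an order that differs between them, but with exon-union length Fgfr1 (3.35 CPM per kb) lies above Fgfr2 (2.74) in 90-day sample 2. Fgf2 and Fgfr3 are the lowest.

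Among the ligands, Fgf1 took most of the family's signal per kb. Its share of the summed level of the 4 ligands was 59.1% ± 1.56 at 30 days, 62.0% ± 4.78 at 60 days and 58.7% ± 0.538 at 90 days (± SD of 3 samples). Fgf10 held 24.2% ± 1.53, 22.7% ± 3.62 and 20.3% ± 2.99, and Fgf7 held 13.3% ± 1.53, 11.9% ± 2.26 and 16.5% ± 3.41 at these times. Fgf2 held at most 5.52% in any library. Among the 4 kinase receptors Fgfr2 was the largest at 30 days with 63.5% ± 9.64, beside 32.5% ± 9.37 for Fgfr1 and 3.97% ± 0.311 for Fgfr3. At 90 days Fgfr2 held 49.4% ± 6.74, Fgfr1 44.2% ± 7.33 and Fgfr3 6.42% ± 1.81. With the principal transcript length the shares of Fgfr2 were 73.5% at 30 days and 61.0% at 90 days.

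Change between time points was tested with edgeR's quasi-likelihood test on all genes that passed a filter on low counts, with Benjamini-Hochberg adjustment over all of them and a threshold of 0.05. Of the 9 genes, 8 passed the filter and Fgfr4 did not. No ligand or receptor passed the test in any comparison. The count called was 0 of 8 for 60 against 30 days, where 1.56% of all genes tested were called, 0 of 8 for 90 against 60 days, where 0.256% were called, and 0 of 8 for 90 against 30 days, where 3.57% were called. By direction, the shares of all genes were 1.14% higher and 0.427% lower for 60 against 30 days, 0.092% and 0.164% for 90 against 60 days and 1.81% and 1.77% for 90 against 30 days. The count was also 0 of 8 for 60 days against the mean of 30 and 90 days (0.256% of all genes, 0.204% higher and 0.0525% lower) and for any difference among the time points (3.29%). At an unadjusted p under 0.05 there were 1 of 8 genes for 60 against 30 days (12.4% of all genes), 3 for 90 against 60 days (10.8%), 4 for 90 against 30 days (16.8%), 3 for 60 days against the mean (9.45%) and 4 for any difference (16.7%). DESeq2 called Fgfr2 alone of the 8 for 90 against 30 days and for any difference, where it called 860 and 847 of all 15224 genes. With limma-voom 0 of 8 were called in every comparison. The comparisons of 60 and of 90 with 30 days share the 30-day libraries. The 60-day libraries enter 60 against 30 and 90 against 60 days with opposite sign, so these 2 steps are not independent.

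**Figure D2:**
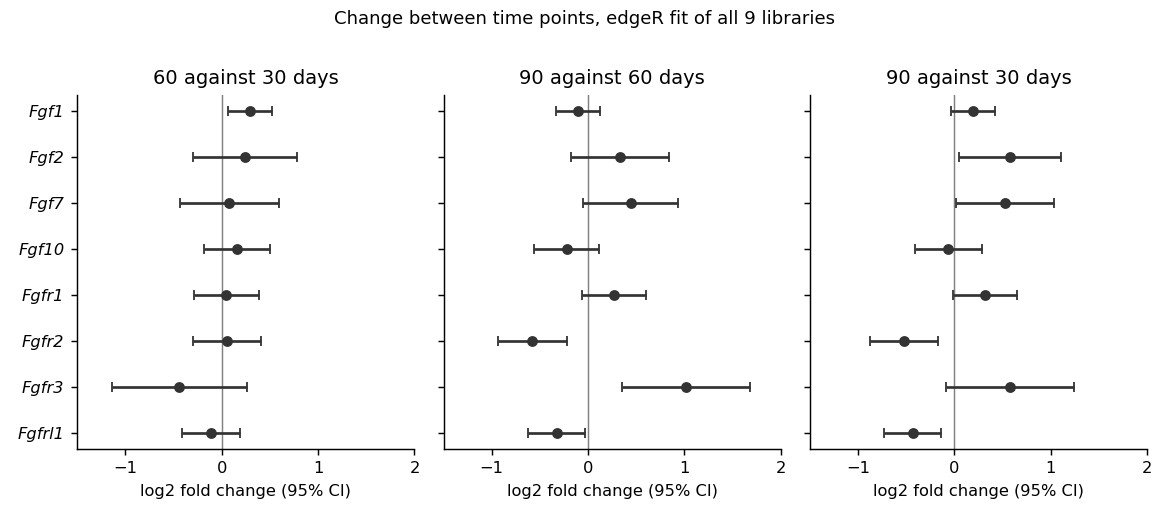
Log2 fold changes with 95% confidence intervals from the edgeR fit for the 8 genes that passed the filter, in the 3 pairwise comparisons of time points. The intervals are per gene and not adjusted for the number of genes tested; those of Fgfr2 for 90 against 60 days (-0.93 to -0.22) and of Fgfr3 (0.35 to 1.68) lie on opposite sides of 0, and neither gene passed the adjusted test.

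Fgf1, acidic FGF, is the ligand that can bind every FGF receptor. It lies on chromosome 18, 38838673 to 38929472, minus strand. It measured 31.3, 37.3 and 37.2 CPM in 30-day samples 1, 2 and 3, 42.4, 43.3 and 44.1 CPM at 60 days and 35.7, 40.8 and 44.2 CPM at 90 days. All 60-day values were above all 30-day values, and the 90-day values overlapped both. Such a separation upwards was found for 8.65% of all genes tested at 60 against 30 days, and Fgf1 was 1 of 8 here, with 0 of 8 separated downwards (8.22% of all genes). The log2 fold change was 0.29 ± 0.11 (SE) from 30 to 60 days (edgeR adjusted p = 0.247) and 0.19 ± 0.11 from 30 to 90 days (edgeR adjusted p = 0.413). Of the 8 genes it had the narrowest interval from 30 to 90 days, -0.04 to 0.42.

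Fgf2, basic FGF, lies on chromosome 3, 37348346 to 37410108, plus strand. It is a low gene here, with 37 to 125 counts per library. It gave 2.62, 2.56 and 2.37 CPM at 30 days, 2.59, 2.58 and 3.76 CPM at 60 days and 4.21, 3.61 and 3.36 CPM at 90 days. The 90-day values were all above the 30-day values, a pattern that 11.4% of all genes showed. From 30 to 90 days the log2 fold change came to 0.57 ± 0.25 (SE; edgeR adjusted p = 0.258), with a 95% interval of 0.04 to 1.10. The gene overlaps Nudt6 on the opposite strand by up to 585 bases of exon. The use of strand in counting is not given in the sources used here, and Nudt6 had 311 counts over the 9 libraries.

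Fgf7, keratinocyte growth factor, is a mesenchymal ligand for the b isoform of Fgfr2. It lies on chromosome 2, 126034658 to 126091185, plus strand. Its levels were 4.54, 5.35 and 4.26 CPM at 30 days, 4.06, 6.42 and 4.51 CPM at 60 days and 4.62, 7.39 and 8.43 CPM at 90 days. Samples 2 and 3 at 90 days were the highest of all 9, while sample 1 lay within the 30-day range. From 30 to 90 days the log2 fold change came to 0.52 ± 0.24 (SE; edgeR adjusted p = 0.283), with an interval of 0.01 to 1.03.

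Fgf10, the ligand whose loss prevents the gland from forming, lies on chromosome 13, 118669791 to 118792115, plus strand. It measured 11.5, 11.8 and 13.1 CPM at 30 days, 9.84, 15.4 and 15.3 CPM at 60 days and 12.3, 10.9 and 11.6 CPM at 90 days. The 60-day group held both the lowest and the highest library, and all 3 groups overlapped. Between 30 and 90 days it gave a log2 fold change of -0.06 ± 0.17 (SE; edgeR adjusted p = 0.901), with an interval of -0.41 to 0.28.

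**Figure D3:**
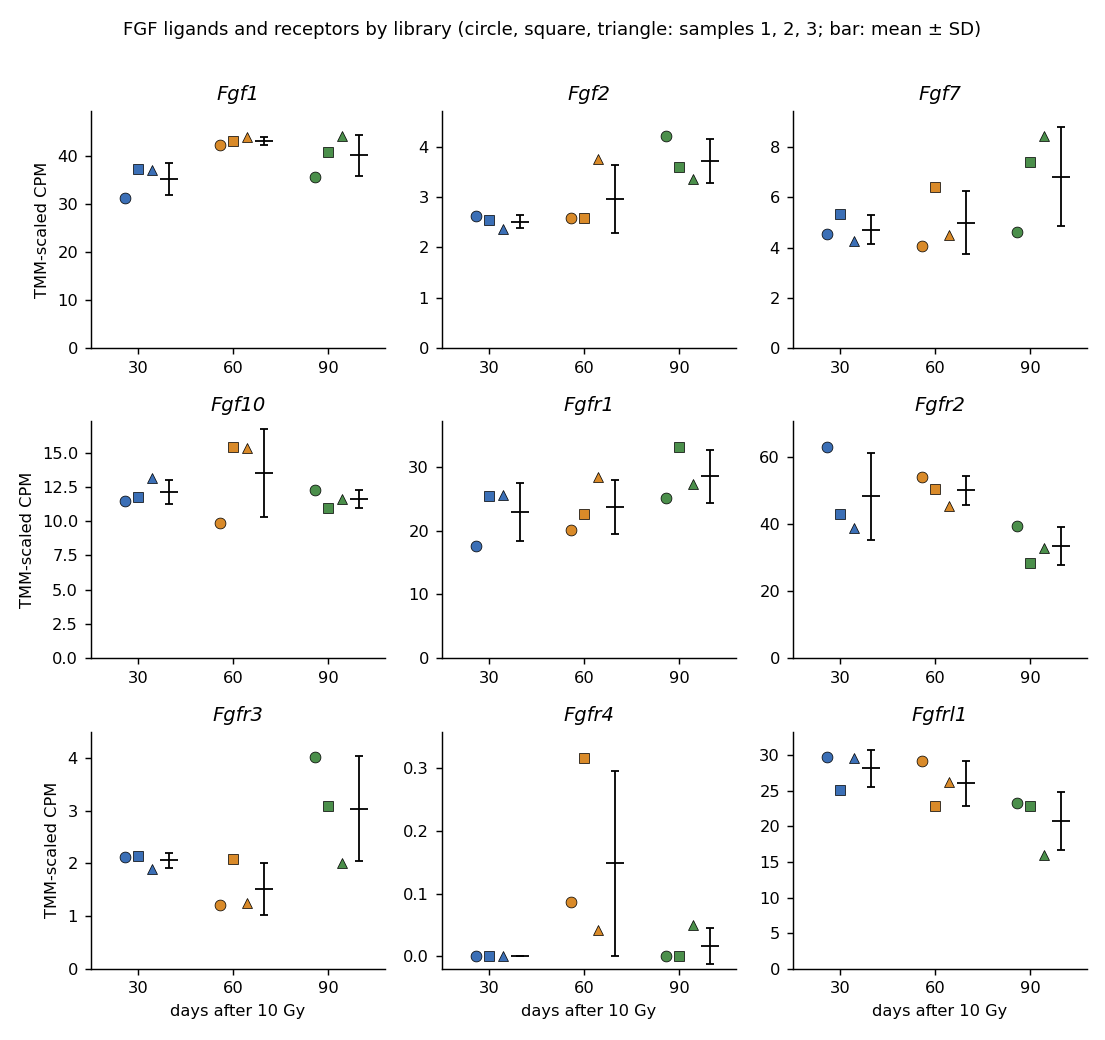
TMM-scaled CPM of each of the 9 genes by days after 10 Gy, with a symbol for each sample and the mean ± SD of 3 samples beside them; vertical axes start at 0 except for Fgfr4, where the axis begins just below 0 to show the zeros. The Fgfr2 values at 90 days (28.3 to 39.3 CPM) lie below all 60-day values, and Fgfr1 is lowest in sample 1 at each time point.

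Fgfr2, the receptor through which Fgf7 and Fgf10 reach the epithelium, had the smallest p-value of the 8 genes for any difference. Release 21 places it on chromosome 7, 130162451 to 133123350, minus strand, a span that runs into Ctbp2, with which it shares up to 210 bases of exon on the same strand. Its levels were 62.9, 43.0 and 38.7 CPM at 30 days, 54.0, 50.4 and 45.4 CPM at 60 days and 39.3, 28.3 and 32.8 CPM at 90 days. The 90-day values lay below all 60-day values, as in 7.64% of all genes (upwards 8.3%, with 0 of 8 here), and overlapped the 30-day values through 30-day sample 3. The log2 fold change was 0.05 ± 0.17 (SE) from 30 to 60 days (edgeR adjusted p = 0.940), -0.58 ± 0.17 from 60 to 90 days (edgeR adjusted p = 0.226) and -0.52 ± 0.17 from 30 to 90 days (edgeR adjusted p = 0.107). Its 95% interval from 30 to 90 days was -0.88 to -0.17.

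The side of the threshold on which Fgfr2 fell depended on single libraries. Without 30-day sample 1, its highest library, the edgeR adjusted p was 0.0318 for 90 against 60 days and 0.0422 for any difference, while 90 against 30 days gave -0.29 (edgeR adjusted p = 0.437). Without 30-day sample 3 the edgeR adjusted p was 0.0344 for 90 against 30 days and 0.0474 for any difference, and without 90-day sample 1 it was 0.0463 for 90 against 30 days. With no scaling beyond library size the change from 30 to 90 days was -0.27 (edgeR adjusted p = 0.359), where the median of all genes moved to 0.24 from 0.01. Gene counts do not separate the b and c isoforms of Fgfr2, which differ in the ligands they bind.

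The genes whose profile over the 9 libraries was most like that of Fgfr2 were Fam13a, Lpo and Trim24, out of 15224 genes tested. The centred log2 CPM profiles differed from that of Fgfr2 by a root mean square of 0.0801, 0.0877 and 0.0925, where Fgfr2 itself had a standard deviation of 0.337 over the libraries. From 30 to 90 days Fam13a and Trim24 gave log2 fold changes of -0.53 and -0.35 (edgeR adjusted p = 0.0683 and 0.260). Lpo encodes lactoperoxidase, a secreted enzyme of saliva and one of the serous acinar markers. It measured 1260, 903 and 860 CPM at 30 days, 1092, 1157 and 862 CPM at 60 days and 772, 596 and 632 CPM at 90 days. Of the 9 acinar markers tested, 2 (Lpo and Aqp5) were called lower and 1 (Amy1, log2 fold change 0.94) higher at 90 than at 30 days. Over all genes tested 1.77% and 1.81% were called in those directions. The median log2 fold change of the markers was -0.45, beside 0.01 for all genes. The summed level of the acinar list ran from 475100 to 674800 CPM at 30 days, from 379300 to 552900 at 60 days and from 324400 to 469000 at 90 days. In whole tissue, fewer cells of a type and less RNA per cell cannot be told apart, and the part of acinar content in the Fgfr2 values was not tested.

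Fgfr1, the receptor of stromal cells among others, lies on chromosome 8, 25513654 to 25575718, plus strand. It gave 17.6, 25.4 and 25.5 CPM at 30 days, 20.1, 22.5 and 28.3 CPM at 60 days and 25.1, 33.1 and 27.2 CPM at 90 days. The groups overlapped, and the log2 fold change between 30 and 90 days came to 0.32 ± 0.16 (SE; edgeR adjusted p = 0.334), with an interval of -0.02 to 0.65. Sample 1 had the lowest Fgfr1 and the highest Fgfr2 at each time point. The summed fibroblast markers were also lowest in sample 1 each time, at 401.1, 404.2 and 505.3 CPM, against 488.4 and 644.7 CPM in the other 30-day samples, 507.8 and 591.1 CPM at 60 days and 619.3 and 543.1 CPM at 90 days. Single markers differed. At 90 days Pdgfrb, Col1a1, Col3a1, Lum, Postn and Fbln1 were lowest in sample 1, but Pdgfra, Col1a2, Dcn and Dpt were not. Pdgfra was highest there (28.8 CPM against 24.2 and 25.25). Pdgfrb was not lowest in sample 1 at 30 and 60 days, nor was Dpt at 60 days. The part of stromal content in the Fgfr1 values was not tested.

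Fgfr3, a receptor known best for restraining bone growth, lies on chromosome 5, 33721674 to 33737068, plus strand. It had only 28 to 119 counts per library. Its levels were 2.13, 2.14 and 1.89 CPM at 30 days, 1.21, 2.08 and 1.25 CPM at 60 days and 4.01, 3.09 and 2.01 CPM at 90 days. At 90 days samples 1 and 2 were the highest of all 9 libraries, and sample 3 lay among the 30-day values. The estimate for 90 against 60 days was the largest of any of the 8 genes, 1.02 ± 0.32 on the log2 scale (SE; edgeR adjusted p = 0.248), and from 30 to 90 days it was 0.58 ± 0.32 (SE; edgeR adjusted p = 0.383).

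Fgfr4 lies on chromosome 13, 55152640 to 55168759, plus strand, and was close to absent. It had 0 counts in each 30-day library, 2, 7 and 1 counts at 60 days and 0, 0 and 1 counts at 90 days. A count of 0 allows up to 3 counts, which is between 0.101 and 0.213 TMM-scaled CPM in these libraries and covers counting error only. The 7 counts of 60-day sample 2 (0.317 CPM) alone exceeded that limit.

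Fgfrl1, which binds FGFs without a kinase domain of its own, lies on chromosome 5, 108692382 to 108706924, plus strand. It measured 29.7, 25.1 and 29.5 CPM at 30 days, 29.2, 22.8 and 26.2 CPM at 60 days and 23.3, 22.9 and 16.0 CPM at 90 days. All 90-day values were below all 30-day values, as in 11.8% of genes tested, and 90-day sample 3 was the lowest. From 30 to 90 days the log2 fold change came to -0.43 ± 0.14 (SE; edgeR adjusted p = 0.105), with an interval of -0.73 to -0.13. With library-size scaling it was -0.19.

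Ratios of counts of these genes within a library do not depend on how libraries are scaled to each other. For 6 ratios the log2 value (with 0.5 added to each count) was compared among the time points with an exact permutation test of the F statistic over all 280 ways to part the samples, one-sided on F, for which the smallest possible p is 0.00357. The ratio of Fgfr3 to Fgfr2 counts was higher at 90 days. It was 0.0338, 0.0498 and 0.0489 in 30-day samples 1, 2 and 3, 0.0224, 0.0413 and 0.0276 at 60 days and 0.102, 0.110 and 0.0613 at 90 days. Each 90-day value was above all other 6 values. The mean log2 ratio was -4.50 ± 0.31 at 30 days, -5.07 ± 0.44 at 60 days and -3.49 ± 0.45 at 90 days (± SD of 3 samples; exact permutation p = 0.00714, Benjamini-Hochberg adjusted p over 6 ratios = 0.0429). The adjusted p rose to between 0.0643 and 0.193 when any 1 library other than 90-day sample 3 was left out, and it stayed at 0.0429 without that library. Fgfr3 counts were low, and the ratio combines genes of which neither passed the test on its own.

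The other 5 ratios did not pass. Fgfr1 stood to Fgfr2 at 0.279, 0.591 and 0.659 in the 30-day libraries, 0.372, 0.447 and 0.624 at 60 days and 0.637, 1.17 and 0.830 at 90 days (exact permutation p = 0.146, adjusted p = 0.220). Among these libraries 90-day sample 2 alone had more reads of Fgfr1 than of Fgfr2. Fgf7 stood to Fgfr2 at 0.0721 to 0.125 at 30 days, 0.0751 to 0.128 at 60 days and 0.117, 0.262 and 0.257 at 90 days, so that 90-day sample 1 fell within the earlier range (exact permutation p = 0.121, adjusted p = 0.220). The mean log2 ratio of Fgf10 to Fgfr2 was -1.96 ± 0.45 at 30 days and -1.51 ± 0.15 at 90 days (± SD of 3 samples; exact permutation p = 0.339). For Fgfrl1 to Fgfr1 it was 0.32 ± 0.40 and -0.47 ± 0.33, with no overlap between these times (exact permutation p = 0.0857, adjusted p = 0.220), and for Fgf1 to Fgf2 it was 3.79 ± 0.20 and 3.43 ± 0.32 (exact permutation p = 0.186).

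**Figure D4:**
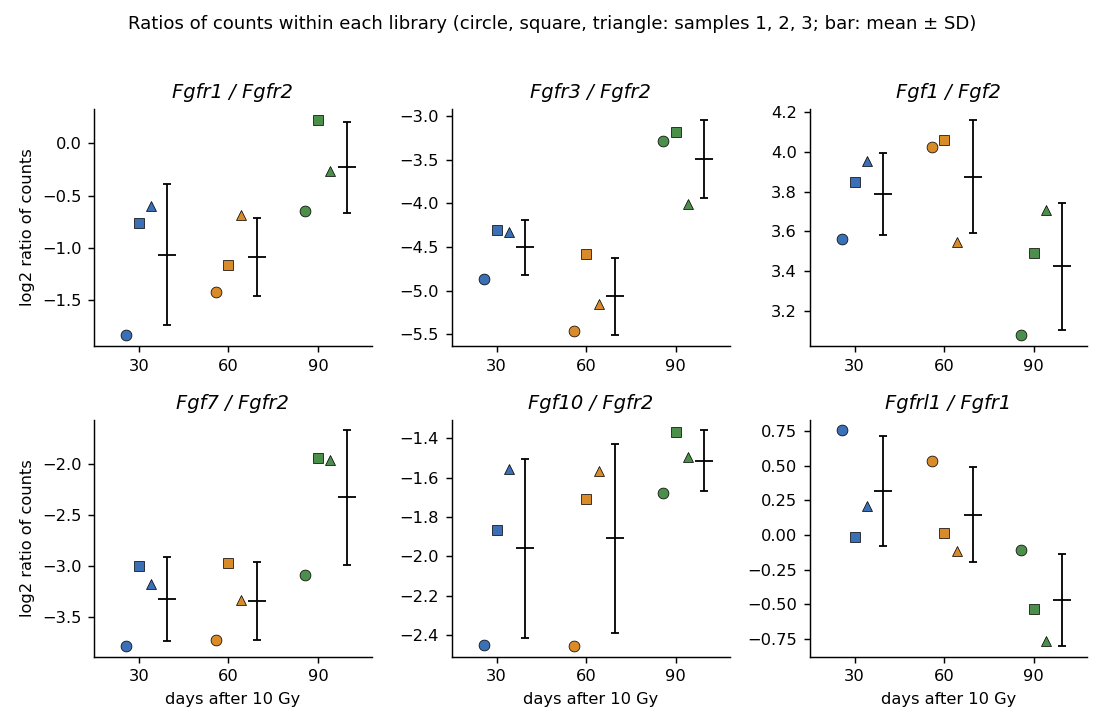
Log2 ratios of counts of 2 genes within each library by days after 10 Gy, with a symbol per sample and the mean ± SD of 3 samples. In the panel of Fgfr3 to Fgfr2 the 90-day samples (-4.01 to -3.18) lie above the 6 others. In no other panel does one time point stand apart from both of the rest.

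Other genes of the pathway were taken from lists written by role. Of 18 other FGF ligands, 3 passed the filter and 9 had 0 counts in all 9 libraries. The other 6 reached at most 6 counts in a library. Fgf9, which had the smallest p of the 3, gave 3.17 ± 0.177 CPM at 30 days, 4.80 ± 0.410 at 60 days and 5.85 ± 1.84 at 90 days (± SD of 3 samples). Between 30 and 90 days it gave a log2 fold change of 0.87 ± 0.24 (SE), which missed the threshold narrowly (edgeR adjusted p = 0.0504). Fgf11 and Fgf13, intracellular members of the family that are not secreted, gave 0.17 and 0.99 (edgeR adjusted p = 0.895 and 0.515).

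Co-receptors and binding proteins had 9 of 12 listed genes tested and 0 called in any comparison. The member with the smallest p for any difference was L1cam, a neural adhesion molecule that can engage FGF receptors, with 5.46 ± 0.989 CPM at 30, 3.60 ± 1.04 at 60 and 6.56 ± 1.46 at 90 days (± SD of 3 samples; edgeR adjusted p = 0.114). The list's median log2 fold change was 0.27 from 30 to 90 days, beside 0.01 for all genes. Of the 9 genes 7 had positive estimates. The FGF binding protein genes Fgfbp1 and Fgfbp3 went the other way, at -0.79 and -0.62 (edgeR adjusted p = 0.221 and 0.513).

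Heparan sulphate, the sugar chain on which FGFs and their receptors assemble, was represented by 25 tested genes of 29. The sulphotransferase gene Hs3st1 rose from 9.95 ± 2.23 CPM at 30 days to 22.3 ± 3.11 at 60 days (log2 fold change 1.17 ± 0.17, SE; edgeR adjusted p = 0.00139) and fell to 9.48 ± 1.69 CPM at 90 days (-1.23 ± 0.17; edgeR adjusted p = 0.00167). Ndst1, which starts the sulphation of the chain, was 129 ± 7.04 CPM at 30 days and 98.1 ± 5.56 CPM at 90 days, a fall of 0.40 (SE 0.10) on the log2 scale. The edgeR adjusted p was 0.0278. These were the only calls among the 25 genes, 1 in each pairwise comparison. Over all genes tested 1.14% were called higher for 60 against 30 days, 0.164% lower for 90 against 60 days and 1.77% lower for 90 against 30 days. The list's medians were -0.04, -0.11 and -0.06 for 60 against 30, 90 against 60 and 90 against 30 days.

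For the relay between receptor and ERK, all 22 listed genes were tested: 1 was called lower at 90 than at 30 days and 0 were called in either step between neighbouring time points. Over all genes tested 1.77% were called lower at 90 than at 30 days, so 1 of 22 is near the background and is no result about the list. The gene was Gab1, an adaptor that couples receptors to the phosphatase Ptpn11 and to PI3 kinase, at 31.6 ± 3.05 CPM at 30 days, 24.2 ± 1.69 at 60 days and 22.5 ± 0.688 at 90 days (± SD of 3 samples; log2 fold change from 30 to 90 days -0.49 ± 0.11, SE; edgeR adjusted p = 0.0176). The median of the relay genes was -0.02 in that comparison. Frs2, the adaptor that binds FGF receptors directly, had means of 24.4 CPM at 30, 25.7 at 60 and 23.2 at 90 days (edgeR adjusted p = 0.722 for any difference).

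Genes induced by ERK, with the Sprouty and Spred inhibitors, included Dusp6, the phosphatase of ERK itself, which fell by 1.51 (SE 0.12) on the log2 scale from 30 to 60 days (edgeR adjusted p = 6.75e-07) and rose by 1.27 ± 0.12 from 60 to 90 days (edgeR adjusted p = 1.00e-05). Etv1, a transcription factor of the same output, fell from 177 ± 27.2 to 123 ± 4.32 CPM over the first step (log2 fold change -0.53 ± 0.12, SE; edgeR adjusted p = 0.0297) and was also called lower at 90 than at 30 days (-0.52 ± 0.12; edgeR adjusted p = 0.0183), with 123 ± 15.2 CPM (± SD of 3 samples). Of the 10 genes tested, 2 were called lower at 60 than at 30 days and 1 higher at 90 than at 60 days, where 0.427% and 0.092% of all genes tested were called in those directions. For 90 against 30 days 1 of 10, Etv1 again, was called lower, beside 1.77% of all genes. All these calls were of Dusp6 and Etv1. The medians of the list were -0.38 and 0.44 in the 2 steps. The list was written with earlier results of these data known, the Dusp6 values among them. Its counts and medians are therefore not independent evidence of a direction. The 8 ligands and receptors had medians of 0.07 and 0.08 in the same steps, but these medians cover mixed directions. Single genes ran from -0.44 to 0.29 (6 higher, 2 lower) and from -0.58 to 1.02 (4 higher, 4 lower).

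Epithelial genes that FGF signals act on during bud and duct formation had 13 of 15 genes tested and 1 called, higher at 90 than at 30 days, where 1.81% of all genes tested were called higher. A single call among 13 genes is no result about the list. Trp63, the transcription factor of basal and myoepithelial cells, was higher at 90 than at 30 days, with 11.4 ± 2.38 CPM at 30 days, 12.2 ± 2.77 at 60 days and 21.6 ± 5.71 at 90 days (± SD of 3 samples; log2 fold change 0.92 ± 0.21, SE; edgeR adjusted p = 0.0289). Sox9 and Sox10, regulators of the salivary bud, gave -0.26 and -0.18 over the same interval (edgeR adjusted p = 0.148 and 0.426). The summed basal and myoepithelial markers, which include Trp63, ran from 304.2 to 424.1 CPM at 30 days, from 452.2 to 481.5 at 60 days and from 419.9 to 592.7 at 90 days. The 60-day sums were above all 30-day sums. Acta2 alone made up 132.2 to 182.2 CPM of the sum at 30 days and 210.3 to 216 CPM at 60 days. Krt5 had means of 27.6 CPM at 30 days, 27.0 at 60 days and 39.2 at 90 days, and Krt14 had 29.6, 34.8 and 37.5 CPM. The part of basal cell content in the Trp63 call was not tested. With library-size scaling alone, Ndst1, Gab1 and Etv1 were no longer called for any difference among the time points, while Hs3st1, Dusp6 and Trp63 were. With size factors as in DESeq2 all of these genes were called. The lists were not put through the other alternatives.

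**Figure D5:**
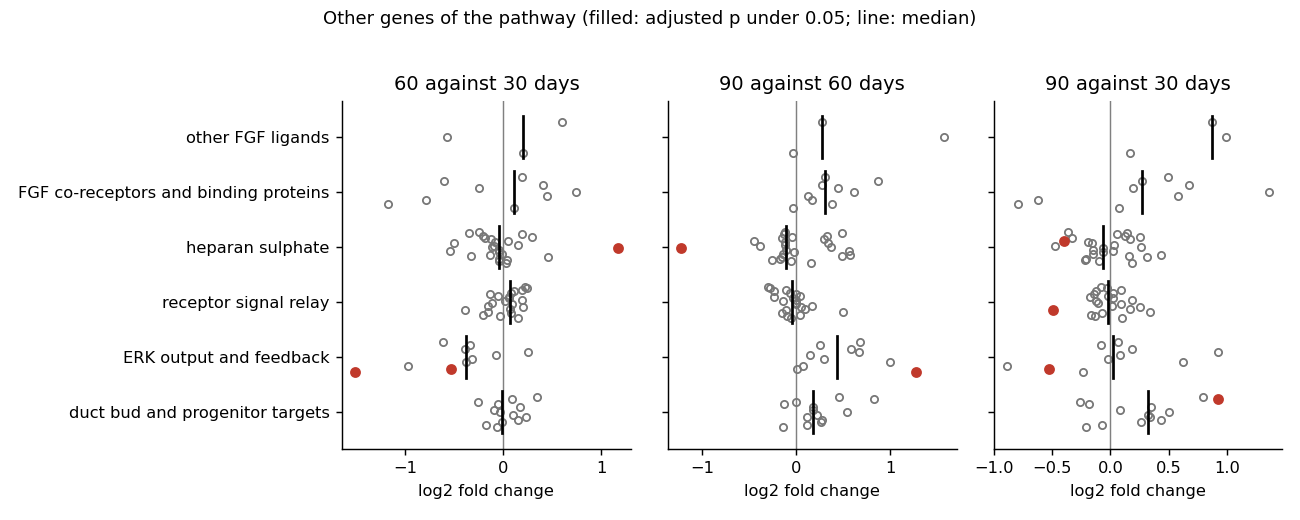
Log2 fold changes of the tested genes of 6 pathway lists in the 3 pairwise comparisons, with a circle per gene, filled where the adjusted p is under 0.05, and a vertical line at the median of each list. The filled circles are Hs3st1, Ndst1, Gab1, Dusp6, Etv1 and Trp63, and the medians of the ERK output list are -0.38, 0.44 and 0.02.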

How the data were processed

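RNA was sequenced in 9 samples of irradiated submandibular gland, 3 per time point, grouped by the day in their titles. The authors deposited raw read counts per Ensembl gene. Per the submitters' processing notes, fastp, STAR and featureCounts were used with the mm10 build, and annotation, strand setting and versions are not given in the sources used here. A further 3 columns match no listed sample and were not used. The members and lists were chosen with earlier results of these data known.

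Symbols were found for 54409 of 54532 identifiers. Genes were filtered with filterByExpr (minimum count 10), leaving 15224, scaled with TMM and fitted together over all 9 libraries in edgeR 4.0.16 (R 4.3.3), with robust quasi-likelihood tests and Benjamini-Hochberg adjustment. CPM use TMM-scaled library sizes. Standard errors are the log2 fold change divided by the square root of F. Ratios used exact permutation tests. The genes named were all 9 members, up to 3 called genes per list (or the 1 with the smallest p), and the 3 profiles nearest to the member with the smallest p. The other genes named from the lists (Fgf11, Fgf13, Fgfbp1, Fgfbp3, Frs2, Sox9 and Sox10) were chosen after their values were seen. The alternatives were scaling by library size or by size factors as in DESeq2, the DESeq2 1.42.0 test, limma-voom (limma 3.58.1), other count filters, only the samples of a contrast, leaving out each library and the sample number as a block. The pathway lists were recounted under the other scalings only, for any difference among the time points. The principal-transcript length for levels per kb was added after seeing the data. Each fit was first checked on simulated counts.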

Additional observations from a re-analysis of the deposited data

How the results depend on the processing

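No ligand or receptor was called for 60 against 30 days under any of 17 alternatives, nor for 60 days against the mean of 30 and 90 days under any of 16. In the other comparisons 1 gene, Fgfr2, was called under DESeq2 (90 against 30 days, adjusted p = 0.0428, and any difference, adjusted p = 0.0288). DESeq2 called 860 and 847 of all 15224 genes in these comparisons. With no filter on low counts 1 gene of 9 was called for 90 against 60 days, 2 for 90 against 30 days (Fgfr2 and Fgfrl1) and 1 for any difference. That setting called 354, 1045 and 1194 of all 27001 genes in the same comparisons. Leaving out each library gave 0 to 1 gene called in each of these comparisons. The number of all genes called moved with the settings, from 238 to between 73 and 459 for 60 against 30 days, from 39 to between 16 and 354 for 90 against 60 days, from 544 to between 184 and 1045 for 90 against 30 days, from 39 to between 13 and 230 for 60 days against the mean and from 501 to between 220 and 1194 for any difference. With library-size scaling 406 of 440 calls for 90 against 30 days were higher.

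The sample number as a replicate block called 1 gene, Fgfr2, for 90 against 60 days (edgeR adjusted p = 0.0253), for 90 against 30 days (edgeR adjusted p = 0.0165) and for any difference (edgeR adjusted p = 0.0101). With the block 92, 717 and 609 of all 15224 genes were called in these comparisons, beside 39, 544 and 501 without it. The labels do not say whether equal numbers pair the samples, and correlations over all genes cannot decide it. Deviations of same-numbered samples correlated between -0.06 and 0.19 over 9 pairs, and the own number was the best match in 8 of 18 cases. With the block the ratio of Fgfr3 to Fgfr2 kept a log2 difference of 1.01 between 90 and 30 days with an adjusted p of 0.133 (exact permutation test). That p says nothing about stability: within the block the smallest possible p is 0.0278, or 0.167 over 6 ratios for a ratio that reaches it alone. When single libraries were left out the difference ran from 0.83 to 1.27.

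With library-size scaling Fgf1 turned to 0.061 for 90 against 60 days and Fgf10 to 0.16 for 90 against 30 days. It left 1 heparan sulphate gene (Hs3st1) with a call for any difference, 0 relay genes and 1 ERK output gene (Dusp6), so that the calls of Ndst1, Gab1 and Etv1 were lost. The causes were not tested. Directions near 0 also turned when single libraries were left out: for 60 against 30 days Fgf7 ran from -0.14 to 0.21, Fgfr1 from -0.10 to 0.15 and Fgfr2 from -0.081 to 0.29, and for 60 days against the mean Fgf2 ran from -0.24 to 0.052. Depth limits Fgf2, Fgfr3 and Fgfr4 most, with no more than 125 counts in any library.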
